A study of Mus musculus with 22 samples.

Results

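The genes described here are 30 genes of glycolysis and of the response to low oxygen, listed by symbol, out of 37620 gene entries in the count table. They comprise 4 transporters, 13 enzymes of the glycolytic path, 3 regulators of its flux, 3 genes of oxygen sensing and 7 further targets of hypoxia-inducible factor (HIF). All 30 were found in the table, and all 30 had enough counts to be tested in both sets of libraries described next. Of these, 20 had at least 10 counts in each of the 22 libraries and 9 had 0 counts in 1 library or more.

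The libraries hold RNA of lymphocytes sorted by flow cytometry from mammary tumours, pooled, of female C57BL/6 mice 20 to 24 weeks old. All mice carried PyMT, the polyoma middle T oncogene, so no tumour-free group was compared, and the promoter that drives PyMT is not named in the labels. There were 11 populations with 2 libraries each. A first set held TCR-NK1.1+, TCRb+CD8a-NK1.1+, TCRb+CD8a+NK1.1+, TCRb+CD8a+PD1+ and TCRb+CD8a+PD1-NK1.1- cells. A second set held ILC1l cells (ILC is innate lymphoid cell), cNK cells (NK is natural killer), TCRab+ILTC1 and TCRgd+ILTC1 cells (innate-like T cells, by the title of the series), TCRb+CD8a+NK1.1- cells and TCRgd+NK1.1- cells. The sets are named here after the way the populations are labelled. NK1.1, encoded by Klrb1c, marks natural killer cells and related innate-like lymphocytes.

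Glycolysis splits glucose into pyruvate in the cytosol, and lactate dehydrogenase turns pyruvate into lactate, which monocarboxylate transporters carry out of the cell. In oxygenated cells prolyl hydroxylases of the EGLN family mark HIF1α for degradation. When oxygen is scarce HIF1α accumulates, binds a short core motif in DNA and raises the transcription of glucose transporters, glycolytic enzymes, brakes on mitochondrial pyruvate use and secreted factors such as vascular endothelial growth factor. Activated T cells and natural killer cells also raise glycolysis in the presence of oxygen.

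Library totals ran from 8696335 to 20602715 counts. Values below are counts per 1000000 (CPM), scaled by TMM factors (trimmed mean of M values) over the 22 libraries, and 3 counts in a library equalled 0.146 to 0.345 CPM before that scaling. The defining receptor genes followed the population names, with Klrb1c at 920.5 CPM or more in all libraries named NK1.1+, ILC1l, cNK or ILTC1 and at 81.5 CPM or less in the others, and Cd3e at 0.615 and 6.09 CPM in cNK. The T cell gene Cd3e was also measured outside the T cell populations, at 217 and 437 CPM in TCR-NK1.1+ and at 86.2 and 459.8 CPM in ILC1l libraries. Epithelial genes (14 genes, summed) stood at 1507 to 7739 CPM in 7 libraries and at 0.0752 to 331 CPM in the other 15. The 7 were both of TCR-NK1.1+, TCRgd+NK1.1- and TCRb+CD8a+NK1.1- and replicate 1 of TCRb+CD8a-NK1.1+. Cdh1 and Epcam were left out of the epithelial list of 16 genes for these sums. Cdh1 did not follow the other genes, at 1206 CPM in TCRgd+ILTC1 replicate 1 and 286 CPM in TCR-NK1.1+ replicate 1. With all 16 genes, TCRgd+ILTC1 replicate 1 (1247 CPM) and TCRb+CD8a-NK1.1+ replicate 2 (1151 CPM) also passed 1000 CPM. Myeloid genes (20 genes, summed) stood at 6660 and 15749 CPM in TCRgd+NK1.1- and at 20.5 to 884 CPM elsewhere. In TCRab+ILTC1 replicate 2, 258 genes with a median of 10 CPM or more elsewhere lay under 1 CPM, against 195 in TCRgd+NK1.1- replicate 2 and 0 to 61 in the others. In bulk libraries such as these, fewer cells of a type and less RNA per cell cannot be told apart. Nothing in the labels says that the 2 libraries of a population came from separate animals, so p-values measure only the spread between libraries.

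Most glycolytic enzymes were abundant, and 7 of the 13 varied little between libraries. Per kilobase of exon, the median over the 22 libraries was 379.9 CPM for Aldoa (aldolase A), 302 for Ldha (lactate dehydrogenase A), 189 for Pkm (pyruvate kinase), 146 for Eno1 (enolase) and 107 for Gapdh (glyceraldehyde-3-phosphate dehydrogenase). At the other end of the same scale, Vegfa (vascular endothelial growth factor A) and Egln3 (a prolyl hydroxylase) had medians of 0.141 and 0.145. The standard deviation of log2 CPM over the 22 libraries had a median of 0.37 over the 13 enzymes, against 0.62 over all 30 genes and 0.83 over the 15194 genes tested in both sets. Over the 3580 of those genes that lay above 50 CPM on average the median was 0.48. For 7 of the 13 enzymes (Gpi1, Aldoa, Pgk1, Pgam1, Eno1, Pkm and Ldha) the highest library stood less than 4-fold above the lowest, with Eno1 at 1.86-fold. The ratio was 9.01 for Pfkl, 6.41 for Tpi1, 4.83 for Hk1, 4.82 for Pfkp and 4.43 for Gapdh, and Hk2, with a median of 7.83 CPM, had 0 counts in 1 library.

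**Figure D1:**
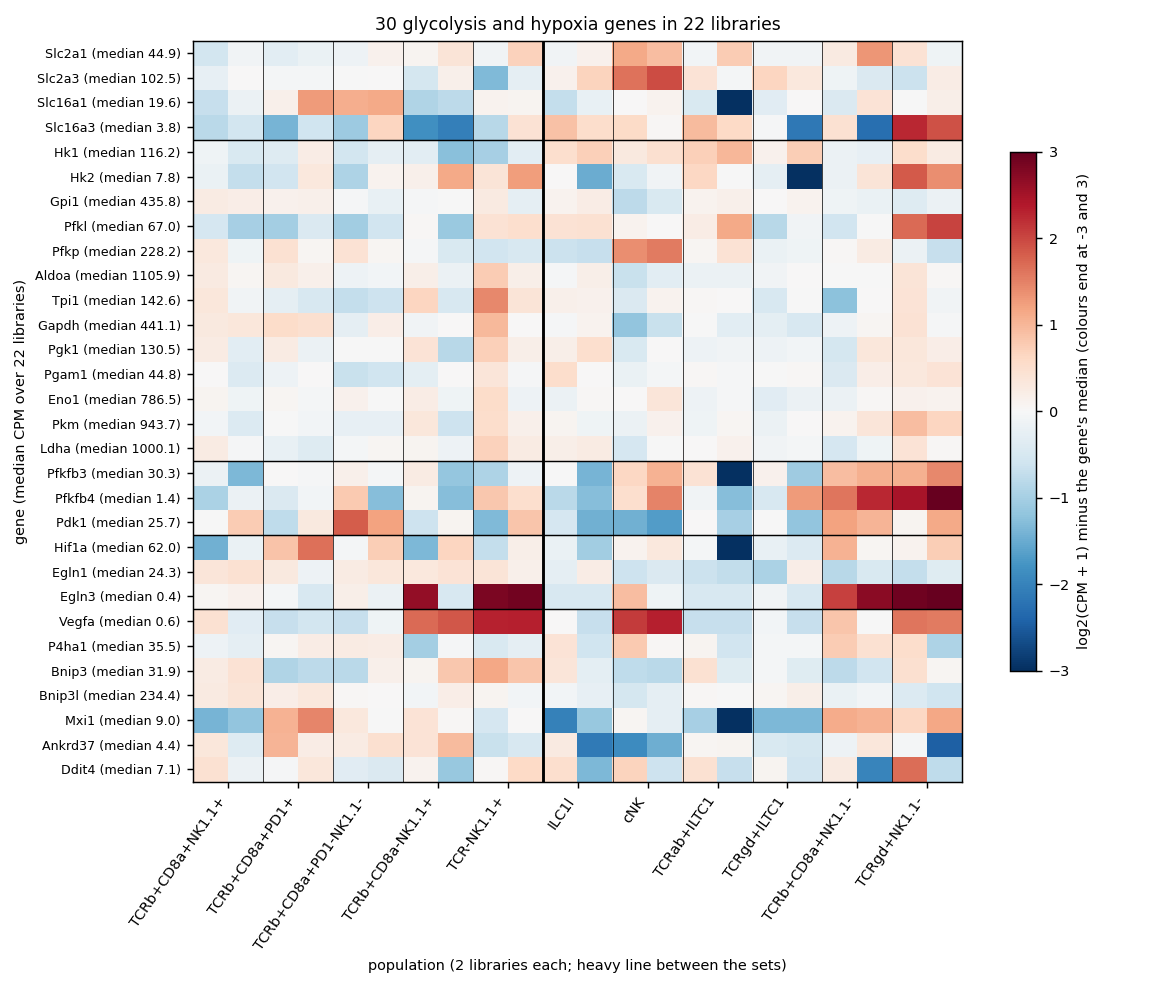
Each row is 1 of the 30 genes and each column 1 of the 22 libraries, with 2 columns per population; colour gives log2(CPM + 1) minus the gene's own median over the libraries. Most enzyme rows are pale, Pfkp and Slc2a3 are reddest in both cNK columns, Pfkl in both TCRgd+NK1.1- columns, and Egln3 is dark red in the 7 libraries with epithelial sums above 1000 CPM.

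Few of the 30 genes differed among populations by edgeR's quasi-likelihood test at an adjusted p under 0.05 over all genes tested (Benjamini-Hochberg). Among the 5 populations of the first set 1 of 30 was called, Mxi1, which is 3.33% of the list, while 6.1% of all 15727 genes were called. Among the 6 populations of the second set 3 of 30 were called, Pfkp, Pfkl and Slc2a3, or 10% against 4.76% of all 16828 genes. The call of Mxi1 is close to the threshold and was lost without any single library of the TCR-NK1.1+, TCRb+CD8a+NK1.1+, TCRb+CD8a+PD1+ or TCRb+CD8a+PD1-NK1.1- populations (adjusted p from 0.0585 to 0.264), while 5 and 6 of the 30 were called without TCRb+CD8a-NK1.1+ replicate 1 or 2. In the second set 0 of 30 were called without cNK replicate 2, 1 (Pfkp) without replicate 1 of ILC1l, cNK or TCRb+CD8a+NK1.1-, and 9 without TCRab+ILTC1 replicate 1, which leaves replicate 2 alone for that population.

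Sequence upstream of the genes was read to see how common the HIF core motif is in the set. RefSeq's promoter table (GRCm38.p6) held 28 of the 30 genes. Within the 250 bases before a transcription start, 26 of the 28 (92.9%) had ACGTG or GCGTG on either strand in at least 1 annotated start. The share was 41.5% for all 27025 genes counted and 60.2% for the 10244 of them that were also tested in both sets. Genes of 1 chromosome were left out of these counts. For ACGTG alone the shares were 67.9%, 18.5% and 24.6%. Counted per window, of which the listed genes had 40, ACGTG or GCGTG was in 80%, 38.6% and 54.2%. The windows also differed in base composition, with a median GC content of 64% for the listed genes, 52.4% for all and 59.6% for those tested. The list was made up of glycolysis genes and HIF targets, so its higher share is a description and not a test. A match describes the letters only, and binding was not measured. The upstream 250 bases are shown for the called enzymes Pfkp and Pfkl, for Mxi1, for Egln3 as the gene that varied most, and for Ldha as an even one. They are written 5′ to 3′ on the strand of the gene, with the matches on either strand in capitals.
Pfkp, chr13:6648772-6649021, minus strand: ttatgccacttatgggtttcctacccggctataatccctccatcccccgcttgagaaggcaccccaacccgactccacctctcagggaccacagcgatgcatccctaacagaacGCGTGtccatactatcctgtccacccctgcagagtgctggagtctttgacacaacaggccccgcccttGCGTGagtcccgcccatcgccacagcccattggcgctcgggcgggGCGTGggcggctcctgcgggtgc
Pfkl, chr10:78009808-78010057, minus strand: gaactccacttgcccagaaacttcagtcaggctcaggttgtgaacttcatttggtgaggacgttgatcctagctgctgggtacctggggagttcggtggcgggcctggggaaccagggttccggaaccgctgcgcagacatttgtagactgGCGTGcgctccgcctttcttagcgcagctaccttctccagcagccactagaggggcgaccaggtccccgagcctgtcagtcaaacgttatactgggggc
Mxi1, 1 of its 3 annotated starts, chr19:53329163-53329412, plus strand: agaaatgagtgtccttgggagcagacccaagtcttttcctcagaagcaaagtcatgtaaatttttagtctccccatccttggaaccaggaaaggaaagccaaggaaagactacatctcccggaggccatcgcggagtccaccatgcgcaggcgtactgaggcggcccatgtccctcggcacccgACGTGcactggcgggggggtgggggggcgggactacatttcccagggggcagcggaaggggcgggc
Egln3, chr12:54203875-54204124, minus strand: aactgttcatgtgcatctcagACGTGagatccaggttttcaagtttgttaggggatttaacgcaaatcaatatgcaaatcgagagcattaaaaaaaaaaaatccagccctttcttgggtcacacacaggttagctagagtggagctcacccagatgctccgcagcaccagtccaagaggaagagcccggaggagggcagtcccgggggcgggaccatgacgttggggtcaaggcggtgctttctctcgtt
Ldha, 1 of its 2 annotated starts, chr7:46845554-46845803, plus strand: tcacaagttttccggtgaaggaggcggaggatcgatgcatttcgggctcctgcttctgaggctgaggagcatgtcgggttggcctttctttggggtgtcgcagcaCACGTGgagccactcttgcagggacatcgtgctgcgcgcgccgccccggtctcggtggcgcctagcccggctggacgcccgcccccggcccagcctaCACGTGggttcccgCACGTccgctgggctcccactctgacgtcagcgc
Pfkp has 3 matches, 136, 68 and 23 bases before the start, all GCGTG. Pfkl has 1 match at 99 bases, also GCGTG, and Egln3 has 1 at 229 bases, ACGTG. Ldha has 5, at 145, 144, 48, 47 and 34 bases, of which the neighbouring positions are 1 palindrome, CACGTG, read on both strands. Mxi1 has 1 ACGTG at 66 bases in the window shown. Ldha thus has 3 separate places with a match, as many as Pfkp.

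Among the transporters, Slc2a3 stood out in cNK cells. Slc2a3 encodes GLUT3, a glucose transporter of high affinity. It was measured at 319 and 399 CPM in cNK and at 40.2 to 163 CPM in the other 20 libraries, so that the groups did not overlap. The next highest populations by their mean were TCRgd+ILTC1 (160.3 and 129 CPM), ILC1l (112 and 163 CPM) and TCRab+ILTC1 (137 and 97.8 CPM). The 3 CD8a+ populations of the first set lay close together, with NK1.1+ cells at 86.0 and 104 CPM, PD1+ cells at 98.3 and 98.5 CPM and PD1-NK1.1- cells at 102 and 103 CPM. The lowest means were in TCR-NK1.1+ (40.2 and 84.7 CPM), TCRb+CD8a+NK1.1- (93.7 and 75.4 CPM), TCRgd+NK1.1- (64.7 and 119.7 CPM) and TCRb+CD8a-NK1.1+ (70.8 and 114 CPM). Among the 6 populations of the second set Slc2a3 differed with an adjusted p of 0.0400 in edgeR, but did not pass in 10 of 20 alternatives. Among these were the myeloid level as a covariate and the replicate number as a block. That call was lost without either library of cNK (0.129 and 0.275), ILC1l, TCRgd+ILTC1 or TCRb+CD8a+NK1.1- (0.0551 to 0.0900 for replicate 1 or 2 of these). Between ILC1l and cNK directly the difference was -1.35 ± 0.37 (log2 ± SE) with an adjusted p of 0.158 in edgeR, which does not pass, whereas DESeq2 called it.

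Slc2a1 encodes GLUT1, the common glucose transporter of activated lymphocytes. It was 99.6 and 85.8 CPM in cNK and 30.4 to 114 CPM elsewhere, the highest single library being TCRb+CD8a+NK1.1- replicate 2, whose partner library had 54.6 CPM. No comparison called Slc2a1. Slc16a1 encodes the lactate transporter MCT1. It gave 42.7 and 43.9 CPM in TCRb+CD8a+PD1-NK1.1-, 21.9 and 49.0 CPM in TCRb+CD8a+PD1+, 11.8 and 17.3 CPM in TCRb+CD8a+NK1.1+ and 10.03 and 10.9 CPM in TCRb+CD8a-NK1.1+ cells. Both NK1.1+ libraries lay below both libraries of each NK1.1- CD8a+ population of that set. The difference between NK1.1+ and PD1-NK1.1- cells was -1.57 ± 0.42 with an adjusted p of 0.132, and among the 5 populations the adjusted p was 0.0577, so neither passed in edgeR, whereas DESeq2 called Slc16a1 between NK1.1+ and PD1-NK1.1- cells. Slc16a3, which encodes the lactate exporter MCT4 and is a HIF target, was low, at 0 to 8.25 CPM in 20 libraries and at 21.9 and 16.95 CPM in TCRgd+NK1.1-. The myeloid sums in TCRgd+NK1.1- were 6660 and 15749 CPM, and the part of myeloid RNA in these values was not tested.

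Phosphofructokinase, which commits sugar to glycolysis, was the step with the clearest differences, with different isozymes high in different populations. Pfkp (the platelet form) was 606 and 675 CPM in cNK. Its second highest population by single library was TCRb+CD8a+PD1+ (315 and 238 CPM), followed by TCRab+ILTC1 (238 and 308 CPM) and TCRb+CD8a+PD1-NK1.1- (306 and 236 CPM). ILC1l had 146 and 142 CPM, which with TCRgd+NK1.1- (203 and 140.2 CPM) and TCR-NK1.1+ (153 and 162 CPM) was among the lowest. The remaining libraries lay between, with TCRb+CD8a+NK1.1+ at 285 and 207, TCRb+CD8a-NK1.1+ at 222 and 166, TCRgd+ILTC1 at 198 and 209.7 and TCRb+CD8a+NK1.1- at 234 and 269 CPM. The cNK libraries thus stood above all of the other 20. In ILC1l Pfkp fell by 2.12 ± 0.25 on the log2 scale relative to cNK (4.36-fold), with an adjusted p of 0.00433 in edgeR. Leaving out ILC1l replicate 1 or 2, which left 1 library for that population, gave differences of -2.14 and -2.10, and the call was lost. Over the 6 populations the adjusted p was 0.00705, and it was 0.0579 without cNK replicate 2.

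Pfkl, the liver form, was highest elsewhere. It was 221 and 275 CPM in TCRgd+NK1.1- and 30.5 to 149 CPM in the other 20 libraries, again without overlap. The next populations were TCRab+ILTC1 (78.1 and 149 CPM), TCR-NK1.1+ (91.3 and 95.7 CPM) and ILC1l (90.9 and 92.9 CPM). The CD8a+ populations of the first set had 47.1 and 33.0 CPM (NK1.1+), 32.6 and 49.0 CPM (PD1+) and 31.9 and 45.0 CPM (PD1-NK1.1-). TCRb+CD8a-NK1.1+ had 68.6 and 30.5, cNK 72.2 and 68.1, TCRgd+ILTC1 37.2 and 62.0, and TCRb+CD8a+NK1.1- 44.4 and 65.9 CPM. In TCRgd+ILTC1 Pfkl fell by 2.35 ± 0.41 on the log2 scale relative to TCRgd+NK1.1- (5.08-fold, adjusted p of 0.0272). The summed myeloid genes were 73.6 and 73.8 CPM in TCRgd+ILTC1 against 6660 and 15749 CPM in TCRgd+NK1.1-, and the epithelial genes 23.1 and 0.0752 against 4340 and 2058 CPM. With the myeloid level as a covariate the difference was -3.75 with an adjusted p of 0.613. The call was also lost without TCRgd+ILTC1 replicate 1 or 2 (-2.10 and -2.77, adjusted p of 0.147 and 0.154). The myeloid level itself separated TCRgd+NK1.1- from TCRgd+ILTC1, so as a covariate it could not be told apart from the population. The part of other cells in this difference was not tested. Over the 6 populations the adjusted p was 0.0287. It was 0.0513 to 0.0752 without ILC1l replicate 1, cNK replicate 1 or 2, TCRb+CD8a+NK1.1- replicate 1 or TCRgd+NK1.1- replicate 2, it was 0.0762 with the myeloid covariate, and it was 0.289 without both TCRgd+NK1.1- libraries. Between the TCRb lineage populations the sign was the other way, with Pfkl at +1.00 ± 0.39 in TCRab+ILTC1 relative to TCRb+CD8a+NK1.1- (adjusted p of 0.295), and the difference between the differences was -3.35 ± 0.56 with an adjusted p of 0.113.

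**Figure D2:**
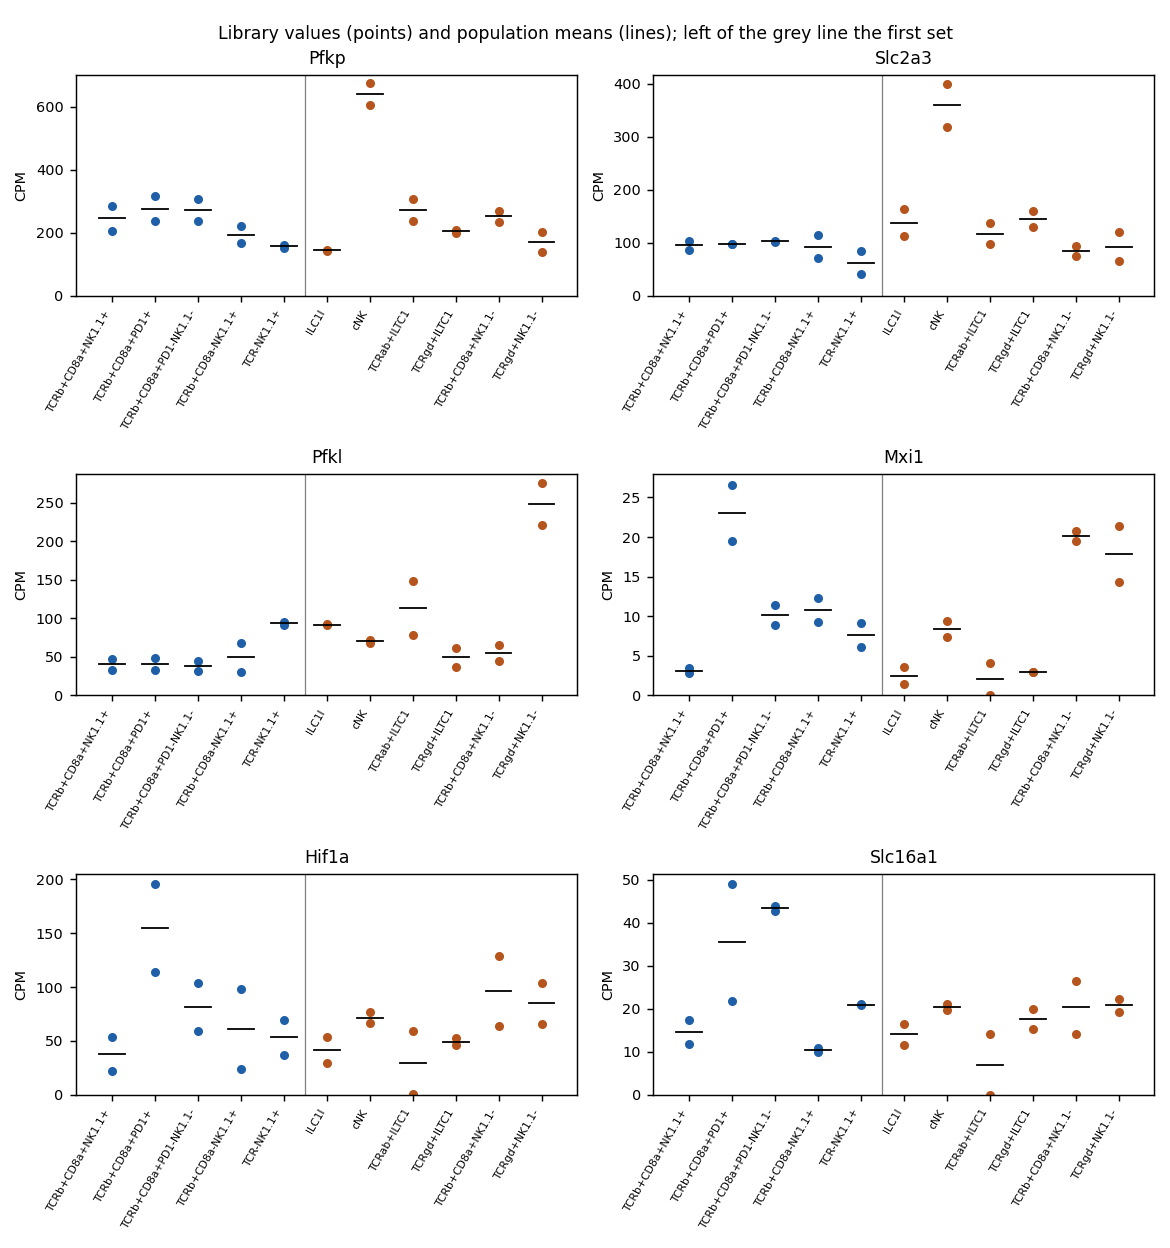
Points are the 2 libraries of a population and short lines their mean, in CPM on an axis from 0, for Pfkp, Slc2a3, Pfkl, Mxi1, Hif1a and Slc16a1. For Pfkp and Slc2a3 the cNK points lie above all others, for Pfkl those of TCRgd+NK1.1-, and for Mxi1 the TCRb+CD8a+NK1.1+ points (2.79 and 3.39 CPM) lie below the TCRb+CD8a+PD1+ points (19.5 and 26.6 CPM).

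Expressed as shares of the summed CPM per kilobase of Pfkl, Pfkm (the muscle form) and Pfkp, the makeup of the step ranged widely. Pfkp made up 79.8% and 79.3% in cNK, 70.2% and 71.2% in TCRb+CD8a+NK1.1+, and 76.6% and 67.0% in TCRb+CD8a+PD1+ cells. It made up 38.8% and 40.0% in ILC1l and 39.3% and 43.1% in TCR-NK1.1+. The smallest shares, 29.5% and 20.2%, were in TCRgd+NK1.1-. Pfkm stood at 13.3 CPM or less in all 22 libraries. The shares rest on annotated exon lengths and not on the transcripts in use.

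**Figure D3:**
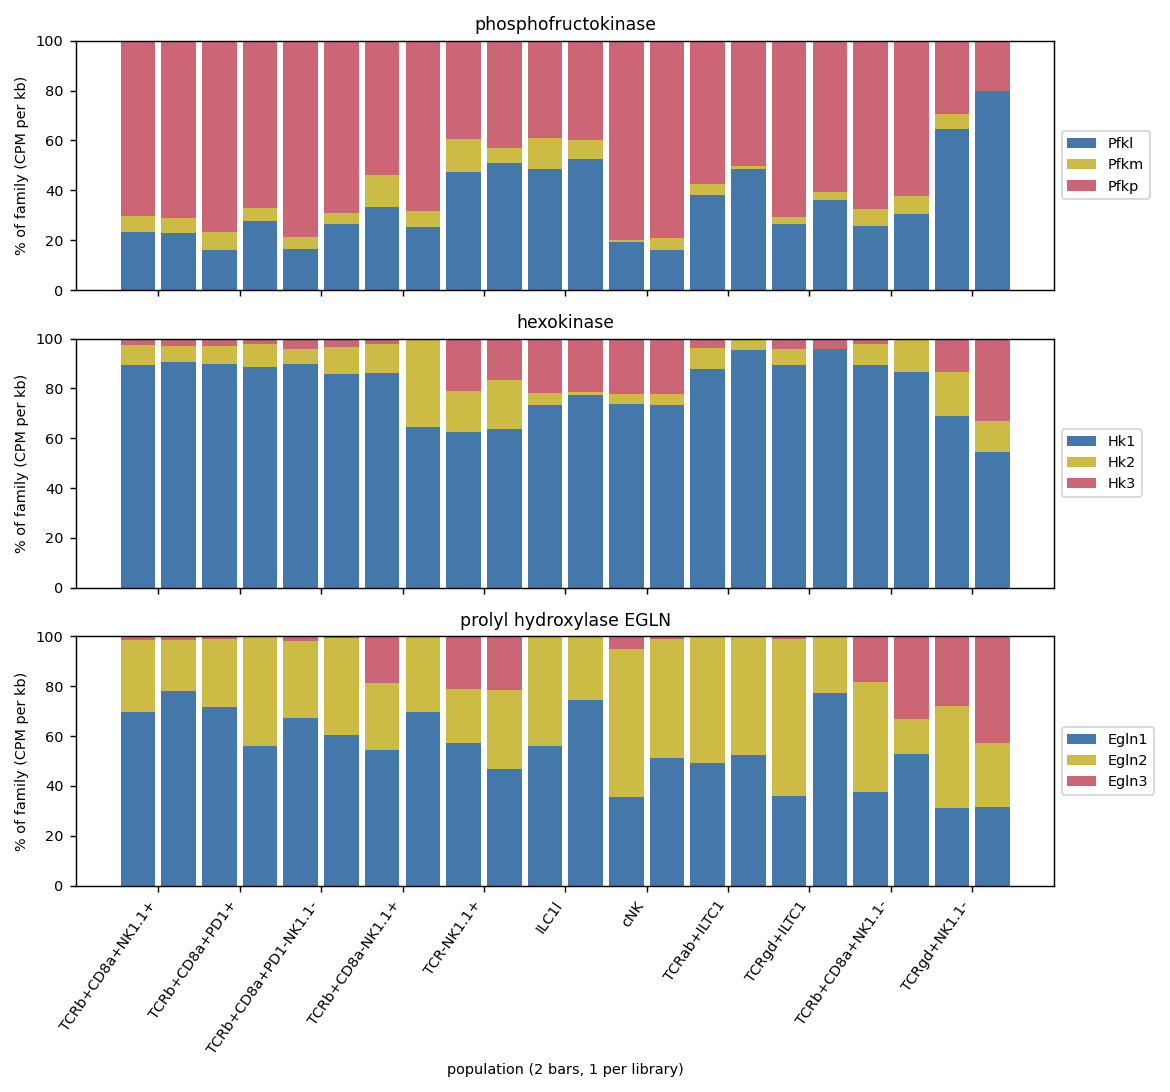
Each bar is 1 library and shows the percent that each isozyme drawn takes of its family's summed CPM per kilobase of exon, for phosphofructokinases, hexokinases and EGLN prolyl hydroxylases. Pfkp takes 79.8% and 79.3% in cNK but 38.8% to 43.1% in ILC1l and TCR-NK1.1+, and Egln3 takes 18.5% or more in the 7 libraries with epithelial sums above 1000 CPM.

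Hexokinase performs the first step, trapping glucose as its phosphate. Hk1 was 48.1 to 233 CPM and highest in TCRab+ILTC1 (192 and 233 CPM), against 102 and 97.9 CPM in TCRb+CD8a+NK1.1-. That difference was +1.05 ± 0.27 with an adjusted p of 0.128. Hk2, the hexokinase that HIF and activation raise, was at 0 to 20.0 CPM in 20 libraries and at 30.4 and 22.2 CPM in TCRgd+NK1.1-. Its difference between TCRgd+ILTC1 (6.31 and 0 CPM) and TCRgd+NK1.1- was -3.08 ± 1.56 with an adjusted p of 0.347. The part of the myeloid RNA of TCRgd+NK1.1- (sums of 6660 and 15749 CPM) in the Hk2 values was not tested.

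The remaining enzymes gave no call in edgeR in any comparison, while DESeq2 called Gapdh, Gpi1 and Pkm in comparisons given further on. In cNK, Gapdh (194 and 277 CPM), Gpi1 (glucose-6-phosphate isomerase, 252 and 319 CPM) and Aldoa (695 and 892 CPM) had their lowest population means. ILC1l had 432 and 477, 469 and 507, and 1071 and 1245 CPM, with no overlap for any of these genes. The differences of ILC1l from cNK were 0.98 ± 0.26, 0.80 ± 0.22 and 0.58 ± 0.21, with adjusted p of 0.146, 0.158 and 0.348. In cNK the highest levels of Pfkp and Slc2a3 therefore stood beside the lowest mean levels of these 3 enzymes. Pkm was 1785 and 1473 CPM in TCRgd+NK1.1- and 835 and 949.5 CPM in TCRgd+ILTC1, a difference of -0.88 ± 0.22 with an adjusted p of 0.0825. Tpi1 (triose phosphate isomerase) ranged from 60.4 to 387 CPM, Pgk1 (phosphoglycerate kinase) from 72.6 to 215 CPM, Pgam1 (phosphoglycerate mutase) from 27.9 to 65.1 CPM, Eno1 from 625 to 1159.98 CPM and Ldha from 706 to 1610.2 CPM. The highest library for Aldoa, Tpi1, Gapdh, Gpi1, Pgk1, Eno1 and Ldha was TCR-NK1.1+ replicate 1, which also had the highest epithelial sum (7739 CPM), and its part in these values was not tested. Several of these genes have processed pseudogenes or near-identical relatives, among which the counting could have split or dropped reads, so their levels are uncertain.

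The regulators of flux were low and uneven. Pfkfb3 and Pfkfb4 make and break fructose 2,6-bisphosphate, the activator of phosphofructokinase. Pfkfb3 was 64.5 and 84.3 CPM in TCRgd+NK1.1-, 58.9 and 64.8 CPM in TCRb+CD8a+NK1.1- and 47.1 and 63.1 CPM in cNK, against 10.9 to 41.4 CPM in the other libraries except TCRab+ILTC1 replicate 2, where it had 0 counts. Pfkfb4 was 12.5 and 21.1 CPM in TCRgd+NK1.1-, 6.38 and 10.6 CPM in TCRb+CD8a+NK1.1- and 0 to 5.82 CPM elsewhere. Pdk1 encodes a pyruvate dehydrogenase kinase, which keeps pyruvate out of the mitochondrion. It was 93.7 and 60.6 CPM in TCRb+CD8a+PD1-NK1.1-, 60.5 and 52.9 CPM in TCRb+CD8a+NK1.1- and 27.3 and 57.6 CPM in TCRgd+NK1.1- cells. It was 8.91 and 7.41 CPM in cNK, 17.9 and 8.91 CPM in ILC1l, 25.5 and 10.8 CPM in TCRgd+ILTC1 and 26.0 and 12.4 CPM in TCRab+ILTC1. Both libraries of each ILTC1 population thus lay below both of the NK1.1- population it was compared with. The tests gave -1.59 ± 0.62 for TCRab+ILTC1 against TCRb+CD8a+NK1.1- (adjusted p of 0.300) and -1.27 ± 0.62 for TCRgd+ILTC1 against TCRgd+NK1.1- (0.331), and over the 6 populations the adjusted p was 0.0959.

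Of the oxygen-sensing genes, Hif1a encodes the regulated subunit of HIF1. It was 114 and 196 CPM in TCRb+CD8a+PD1+, 59.7 and 104 CPM in TCRb+CD8a+PD1-NK1.1- and 22.2 and 53.7 CPM in TCRb+CD8a+NK1.1+ cells. The NK1.1+ libraries lay below those of both other CD8a+ populations without overlap, and the difference from PD1+ cells was -2.02 ± 0.68 with an adjusted p of 0.245 in edgeR. DESeq2 called it. Hif1a was 0.373 CPM in TCRab+ILTC1 replicate 2 and 59.7 CPM in replicate 1, and that low library is the one in which 258 otherwise expressed genes were missing. Messenger RNA of Hif1a does not report the protein, which oxygen regulates by degradation. Egln1, the main prolyl hydroxylase, was at 12.04 to 33.4 CPM, with a standard deviation of log2 CPM of 0.50 over the libraries. It was 21.5 to 33.4 CPM in the first set. In the second it was 28.3 CPM in ILC1l replicate 2, 27.8 CPM in TCRgd+ILTC1 replicate 2 and 12.04 to 19.8 CPM in the rest.

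Egln3 followed the libraries with epithelial genes. It was 8.74 and 9.28 CPM in TCR-NK1.1+, 9.49 and 18.5 CPM in TCRgd+NK1.1-, 4.74 and 8.05 CPM in TCRb+CD8a+NK1.1- and 7.68 CPM in TCRb+CD8a-NK1.1+ replicate 1. Those are the 7 libraries with epithelial sums above 1000 CPM, and Egln3 was 0 to 1.61 CPM in the other 15. In TCRb+CD8a-NK1.1+ replicate 2, where the epithelial sum was 331 CPM, Egln3 had 0 counts. Both ILC1l and both TCRab+ILTC1 libraries had 0 counts, while cNK had 21 counts in replicate 1 and 3 in replicate 2 (1.61 and 0.265 CPM). Taking 3 counts over the population as its limit, Egln3 was at least 71.1-fold lower in TCRab+ILTC1 than in TCRb+CD8a+NK1.1-. It was at least 8.37-fold lower in ILC1l than in cNK, a bound that rests on cNK replicate 1. The adjusted p of these differences were 0.126 and 0.309, that between TCRgd+ILTC1 and TCRgd+NK1.1- was 0.132 (-6.53 ± 1.86), and that over the second set was 0.0537.

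Among the other HIF targets Mxi1, which encodes a repressor of the MYC network, differed between CD8a+ T cells. It was 2.79 and 3.39 CPM in TCRb+CD8a+NK1.1+, 19.5 and 26.6 CPM in TCRb+CD8a+PD1+ and 11.4 and 8.87 CPM in TCRb+CD8a+PD1-NK1.1- cells. TCRb+CD8a-NK1.1+ had 12.3 and 9.27 CPM and TCR-NK1.1+ 6.08 and 9.14 CPM. Both TCRb+CD8a+NK1.1+ libraries were below all 8 others of that set. In NK1.1+ relative to PD1+ cells Mxi1 fell by 2.89 ± 0.51 on the log2 scale (7.40-fold, adjusted p of 0.0167), and over the 5 populations the adjusted p was 0.0453. Without any 1 of these 4 libraries the difference stayed between -3.09 and -2.65 but the adjusted p was 0.0664 to 0.218, and it was 0.441 in 1 fit of all 22 libraries. In the second set Mxi1 was 20.8 and 19.5 CPM in TCRb+CD8a+NK1.1- and 14.3 and 21.4 CPM in TCRgd+NK1.1-. It was 4.05 and 0 CPM in TCRab+ILTC1, 2.94 and 2.93 CPM in TCRgd+ILTC1, 1.46 and 3.53 CPM in ILC1l and 9.38 and 7.32 CPM in cNK. The lower values of the ILTC1 cells did not pass (-3.33 ± 1.48 with an adjusted p of 0.359 and -2.63 ± 1.44 with 0.382).

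Bnip3 and Bnip3l encode receptors that direct mitochondria to degradation. Bnip3 was 37.9 and 43.5 CPM in TCRb+CD8a+NK1.1+, 16.5 and 18.0 CPM in TCRb+CD8a+PD1+ and 17.7 and 35.4 CPM in TCRb+CD8a+PD1-NK1.1- cells, and reached 72.3 and 57.7 CPM in TCR-NK1.1+. Between NK1.1+ and PD1+ cells it differed by 1.24 ± 0.40 with an adjusted p of 0.223. This is the opposite direction to Mxi1, although both are HIF targets. Bnip3l was even, at 154 to 308 CPM. Vegfa was 6.92 and 7.03 CPM in TCR-NK1.1+ and 4.24 and 4.88 CPM in TCRb+CD8a-NK1.1+, and 5.92 and 7.14 CPM in cNK, where the epithelial sums were 55.9 and 116 CPM. In the other libraries it was 0 to 3.90 CPM. P4ha1 (a collagen prolyl hydroxylase) was 17.0 to 61.4 CPM, Ankrd37 0 to 9.97 CPM and Ddit4 (an inhibitor of mTORC1 signalling) 1.04 to 24.6 CPM, with no call.

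The comparison of TCRb+CD8a+NK1.1+ with TCRb+CD8a+PD1+ cells called 1 of the 30 genes, Mxi1, or 3.33% of them against 2.11% of all genes (1.02% called lower). Both libraries of NK1.1+ cells lay above both of PD1+ cells for 7 genes (21.5% of all genes did so) and below for 6 (23.4%). The median difference was -0.05 for the listed genes and -0.00 for all. The uncalled genes of largest difference were Hif1a and Vegfa, the latter on 17 counts against 1, a ratio of 19.0 with an exact 95% counting interval from 2.97 to 793. Against TCRb+CD8a+PD1-NK1.1- cells 0 of the 30 were called in edgeR (1.78% of all genes), 2 had an unadjusted p under 0.05, and DESeq2 called 2, Mxi1 and Slc16a1. Without overlap 9 genes were higher (20.1% of all genes) and 6 lower (20.4%). The largest uncalled differences were Mxi1 (-1.70 ± 0.49, adjusted p of 0.171) and Vegfa (1.62 ± 1.45, 0.866). Shares of all genes called, here and in the comparisons below, are those of edgeR and do not apply to the DESeq2 counts. Over the populations of each set DESeq2 called more genes than edgeR, as given further on.

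Between TCRb+CD8a+PD1+ and TCRb+CD8a+PD1-NK1.1- cells 0 of the 30 were called in edgeR (0.451% of all genes), 2 had an unadjusted p under 0.05 and DESeq2 called 0. Pdk1 was lower in PD1+ cells (14.8 and 31.7 CPM) without overlap, by -1.74 ± 0.68 with an adjusted p of 0.600. Vegfa rested on 1 count against 6, a ratio of 6.14 with an interval from 0.745 to 282. Without overlap 10 of the 30 were higher in PD1+ (18.1% of all genes) and 5 lower (17.2%). Between TCRb+CD8a+NK1.1+ and TCR-NK1.1+ cells 0 were called in edgeR (1.54% of all genes), 3 had an unadjusted p under 0.05 and DESeq2 called 0. Here 4 of the 30 were higher in the T cells (20.4% of all genes) and 10 lower (25.6%), with a median of -0.36 against -0.05 over all genes. The largest differences were Egln3 (-4.20 ± 1.95, adjusted p of 0.339) and Vegfa (-3.22 ± 1.43, 0.321), and the epithelial sums were 60.2 and 23.0 CPM in the T cells against 7739 and 4152 CPM. These 4 comparisons share libraries.

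In the second set the comparison of ILC1l with cNK called 1 of the 30 genes, Pfkp, or 3.33% against 1.02% of all genes (0.41% called lower). DESeq2, to which those shares do not apply, called 4 (Gapdh, Gpi1, Pfkp and Slc2a3). Without overlap 12 of the 30 were higher in ILC1l (26.3% of all genes) and 10 lower (27%), with medians of 0.14 and 0.03 over the listed and all genes. The largest uncalled differences besides Egln3 were Vegfa (-4.34 ± 2.09, adjusted p of 0.522) and Pfkfb4 (-4.33 ± 1.92, 0.471). Between TCRab+ILTC1 and TCRb+CD8a+NK1.1- cells 0 were called in edgeR (0.523% of all genes), 6 had an unadjusted p under 0.05 and DESeq2 called 2, Egln3 and Hk1. Vegfa had 0 counts in TCRab+ILTC1 and 36 in TCRb+CD8a+NK1.1-, at least 14.2-fold lower. Without overlap 9 of the 30 were higher (18.4% of all genes) and 11 lower (24.4%), with medians of -0.10 and -0.07. The medians of the 30 genes for this and the preceding comparison are the same with genes at 0 counts set to their limits. Without TCRab+ILTC1 replicate 1, which leaves the library in which 258 genes were missing, 4 were called (Hif1a, Mxi1, Pfkfb3 and Slc16a1).

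Between TCRgd+ILTC1 and TCRgd+NK1.1- cells 1 of the 30 was called, Pfkl, or 3.33% against 1.59% of all genes (0.921% called lower). DESeq2, to which those shares do not apply, called 4 (Egln3, Gapdh, Pfkl and Pkm). The count without overlap was lopsided here, with 18 of the 30 lower in TCRgd+ILTC1, or 60% against 21.3% of all genes, and 3 higher, or 10% against 20.9%. The median difference was -0.41 for the 30 genes and -0.13 for all genes. All 20 myeloid markers were detected in both TCRgd+NK1.1- libraries, whereas 3 and 10 of them were at 0 counts in the 2 TCRgd+ILTC1 libraries. The epithelial sums also differed, as given for Pfkl, and 10 stromal and endothelial genes summed to 929.6 and 179 CPM in TCRgd+NK1.1- and to 37.6 and 34.9 CPM in TCRgd+ILTC1. The part of such cells in the shift was not tested. The largest uncalled differences were those of Egln3 and Vegfa (-3.87 ± 2.05, adjusted p of 0.372). For the difference between this contrast and that of TCRab+ILTC1 with TCRb+CD8a+NK1.1-, 0 of 30 were called in edgeR (0.0535% of all genes), 2 at an unadjusted p under 0.05 and 1 (Pfkl) was called in DESeq2. Without TCRab+ILTC1 replicate 1 that count was 4, and without TCRgd+NK1.1- replicate 1 it was 1. The largest uncalled differences were Slc16a3 (-4.77 ± 2.55, adjusted p of 0.639) and Pfkl.

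**Figure D4:**
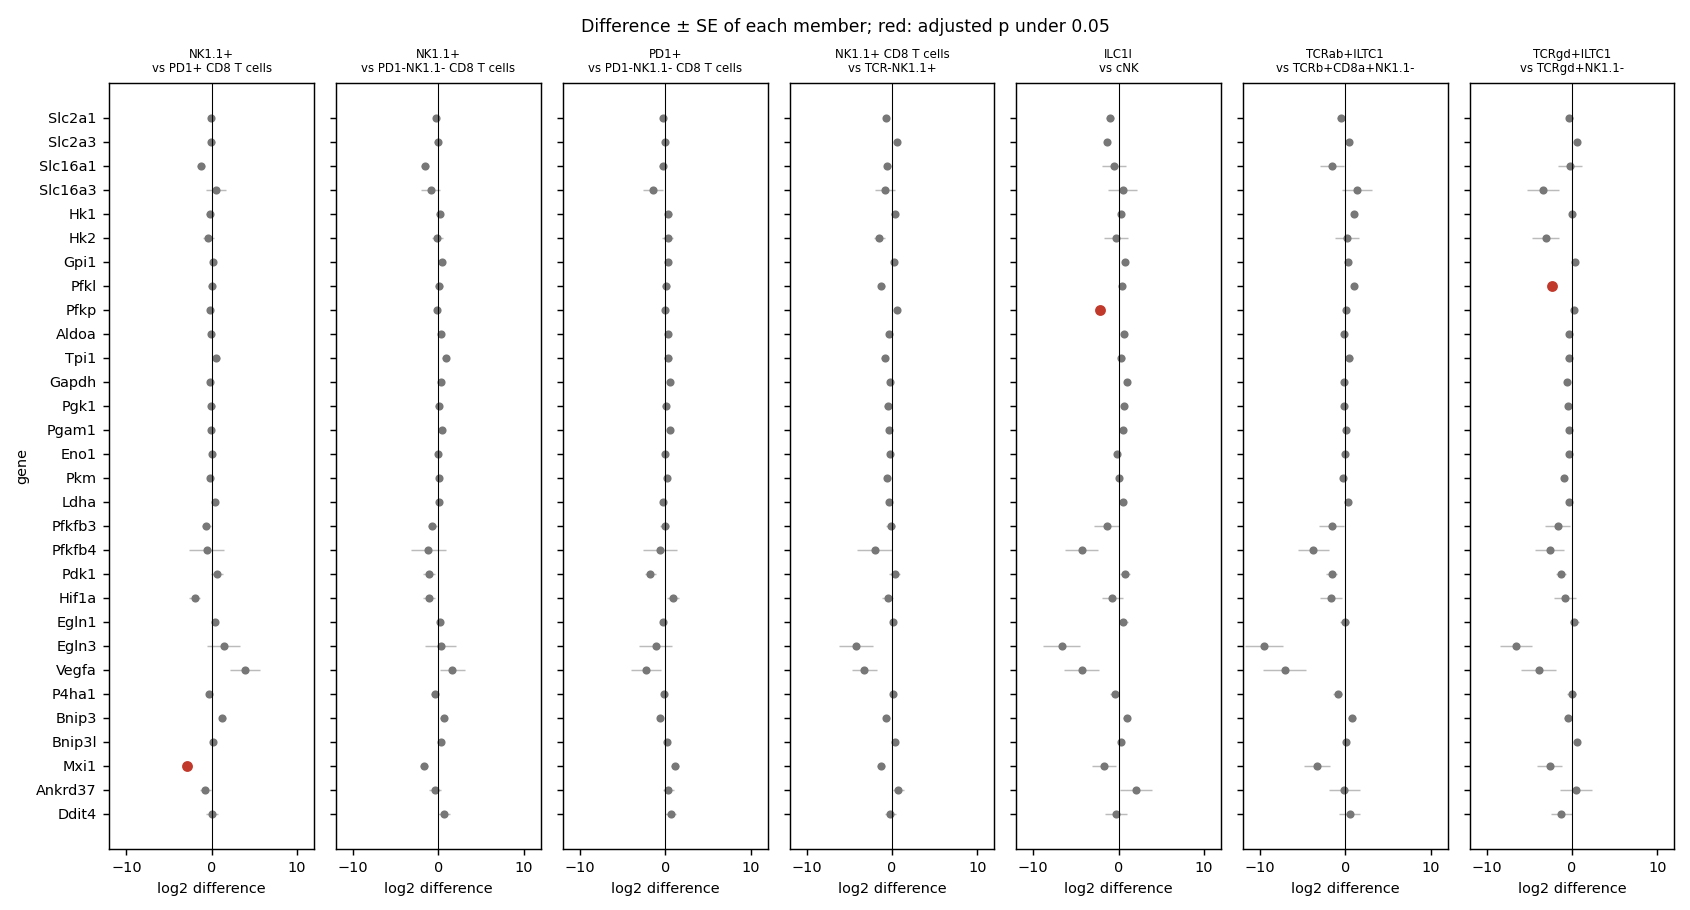
Each panel is 1 comparison of 2 populations and each point 1 of the 30 genes, placed at its log2 difference with bars of ± 1 SE; red points passed an adjusted p under 0.05. Red points are Mxi1 in the first panel, Pfkp for ILC1l against cNK and Pfkl for TCRgd+ILTC1 against TCRgd+NK1.1-, and the wide bars belong to genes of few counts such as Egln3 and Vegfa.

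Members that moved with RNA of other cells were found by their correlation with the marker lists over the 22 libraries, given as a description, since libraries of 1 population share their sort and the lists themselves correlated (Pearson r of 0.83). With the mean log2 level of the 14 epithelial genes, 3 of the 30 had r above 0.7, namely Egln3 (0.87), Vegfa (0.72) and Pkm (0.71). With the myeloid genes 3 did, namely Pkm (0.80), Egln3 (0.77) and Pfkfb4 (0.75). Without the TCRgd+NK1.1- libraries (n = 20) the values for Egln3 were 0.85 and 0.70, for Pkm 0.62 and 0.64 and for Pfkfb4 0.40 and 0.67. Pfkl had r of 0.60 with the myeloid genes over 22 libraries and 0.19 without TCRgd+NK1.1-. Pfkp (-0.26 and -0.16) and Hif1a (0.19 and 0.36) had lower values with both lists, Mxi1 had r of 0.47 and 0.56 and Hk2 0.61 and 0.50. Slc2a3 had r of -0.52 and -0.20, so it tended to be lower where epithelial genes were higher. Its median was 75.4 CPM in the 7 libraries with epithelial sums above 1000 CPM and 112 CPM in the other 15. The part of other cells in this was not tested.

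**Figure D5:**
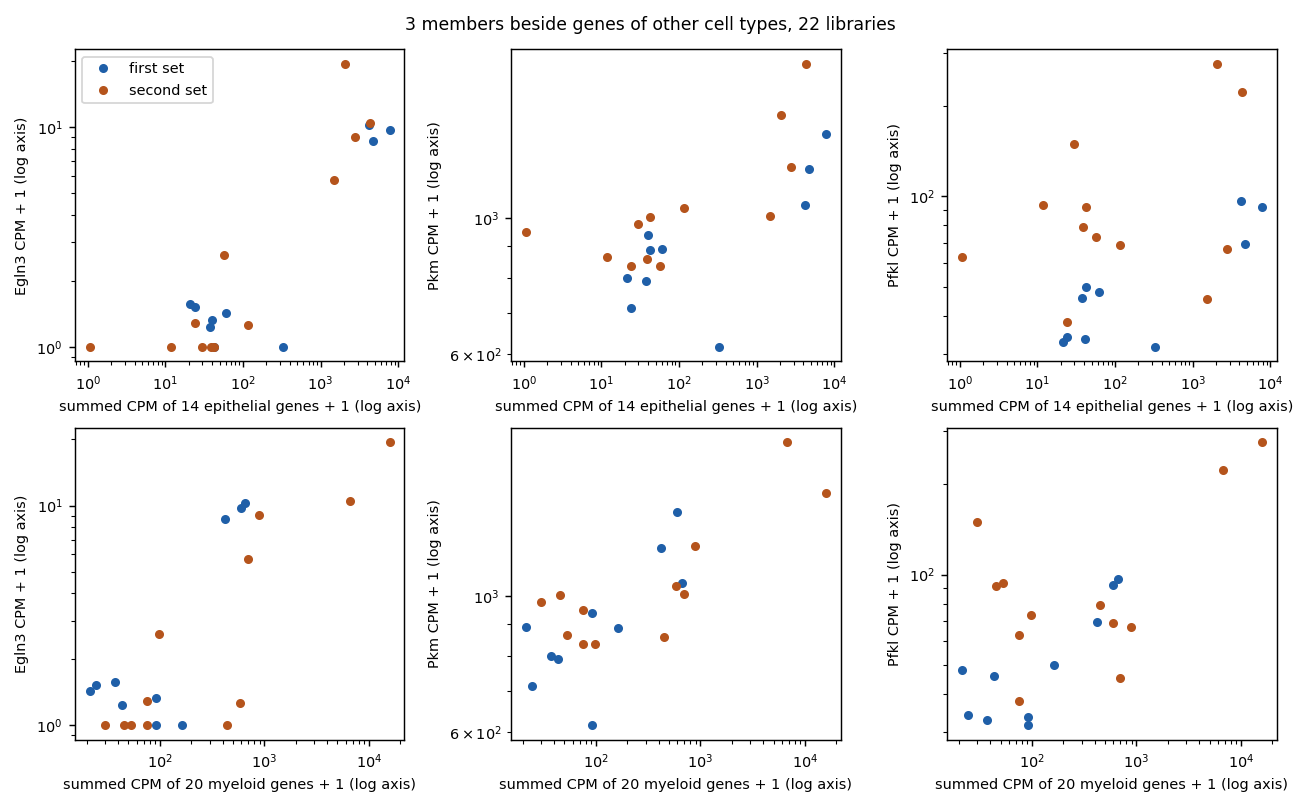
Points are the 22 libraries, with summed CPM of epithelial genes (upper row) or myeloid genes (lower row) plus 1 on the horizontal axis and CPM plus 1 of Egln3, Pkm or Pfkl on the vertical axis, both logarithmic. Egln3 lies at 4.74 CPM or more in the 7 libraries with over 1000 CPM of epithelial genes and at 1.61 CPM or less in the rest; for Pfkl the 2 highest points are the TCRgd+NK1.1- libraries.

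Other genes of the same pathways were tested from lists of 24 glycolysis and 18 hypoxia genes. Among the 5 populations of the first set 2 of 18 tested glycolysis genes were called (Aldoc and Slc2a6) and 3 of 16 hypoxia genes (Ndrg1, Car9 and Bhlhe40), where 6.1% of all genes were. Among the 6 of the second set the counts were 1 of 19 (Aldoc) and 1 of 17 (Ero1l), against 4.76% of all genes. Aldoc, a further aldolase, followed the epithelial libraries, at 56.3 to 187 CPM in the 7 libraries with epithelial sums above 1000 CPM and at 1.31 to 23.8 CPM in the other 15. In TCRb+CD8a+NK1.1+ relative to TCR-NK1.1+ it fell by 4.33 ± 0.79 on the log2 scale (adjusted p of 0.0297). With the epithelial level (all 16 genes of that list) as a covariate the difference of Aldoc was 0.12. It lost that call without any 1 of the 4 libraries (adjusted p from 0.0512 to 0.237). In TCRgd+ILTC1 relative to TCRgd+NK1.1- Aldoc fell by 3.35 ± 0.70 (adjusted p of 0.0495), and the call was lost without TCRgd+NK1.1- replicate 1 or either TCRgd+ILTC1 library (0.0671 to 0.211) and with the myeloid covariate (0.880). Of the other calls, Slc2a6 was lost without TCR-NK1.1+ replicate 1 (0.0970), with the epithelial covariate (0.190) and without both TCR-NK1.1+ and TCRb+CD8a-NK1.1+ populations (0.226). Car9 was lost in 1 fit of all 22 libraries (0.0627). Ero1l was lost in 4 of 20 alternatives, among them without TCRgd+NK1.1- replicate 2 and with the myeloid covariate. Ndrg1 was lost without TCR-NK1.1+ replicate 2 or either TCRb+CD8a+PD1+ library (0.0518 to 0.0572), and Bhlhe40 without TCRb+CD8a+PD1+ replicate 1 (0.0558).

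Within the CD8a+ T cells of the first set, where the epithelial sums were 20.0 to 60.2 CPM, 2 of 16 hypoxia genes were called in NK1.1+ relative to PD1+ cells (2.11% of all genes were). The myeloid sums were 20.5 and 23.5 CPM in NK1.1+ and 91.1 and 161.5 CPM in PD1+ cells, and their part in the differences was not tested. Car9, a carbonic anhydrase and HIF target, had 5.83 and 4.61 CPM against 0.0669 and 0 CPM, on 120 counts against 1, and rose with an adjusted p of 0.00863 (0.0809 without PD1+ replicate 2 and 0.107 in 1 fit of all 22 libraries). In NK1.1+ cells Bhlhe40, a transcription factor that activation and hypoxia both raise, stood at 295 and 283 CPM, and in PD1+ cells at 794 and 762 CPM. It fell by 1.42 ± 0.29 on the log2 scale in the former (adjusted p of 0.0326). Relative to PD1-NK1.1- cells (157 and 234 CPM) Bhlhe40 rose in PD1+ cells by 1.99 ± 0.29 (adjusted p of 0.0205). Both calls of Bhlhe40 were lost without any 1 of their 4 libraries, with adjusted p from 0.0601 to 0.289. Ndrg1 (a stress-responsive HIF target) stood at 23.8 and 29.2 CPM against 5.62 and 5.61 CPM, a difference of 2.25 ± 0.51 with an adjusted p of 0.0609 in this comparison. The HIF targets of NK1.1+ CD8a+ cells thus did not share a direction relative to PD1+ cells, with Car9 called higher and Mxi1 and Bhlhe40 called lower.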

How the data were processed

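RNA of 22 libraries (11 sorted populations, 2 each) was amplified with a SMARTer kit after flow cytometric sorting, per the labels' protocols. The authors deposited whole counts per gene, made with BWA 0.7.5a, Picard and HTSeq, per the submitters' processing notes, which also name the builds mm9 and NCBIM37 without a role. No source used here gives the counting settings or the use of strand. The tumours were pooled, and the titles ILC1I and ILC1l were read as 1 population.

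Of 37620 entries, 32897 (99.02% of counts) got a symbol from a GENCODE annotation of GRCm38, which served for names and exon lengths only, and 3 symbols were shared by several entries. Promoter sequences came from RefSeq, with coordinates in GRCm38.p6. The quasi-likelihood test of edgeR 4.0.16 (R 4.3.3) was run on the counts after filterByExpr and TMM scaling, with calls at a Benjamini-Hochberg adjusted p of 0.05, separately for the first set (10 libraries) and the second (12), with 1 mean per population. SE was the absolute log2 difference divided by the square root of F. CPM were TMM-scaled. Named genes are all 30 listed, each called one, the 2 uncalled genes of largest difference per comparison, and called genes of the pathway lists of at least 5 CPM. Hk3 and values within isozyme families were chosen after values were seen.

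Alternatives were DESeq2 size factors, no filter, a replicate block, the epithelial or myeloid level as covariate, DESeq2 1.42.0, 1 fit of all libraries and leaving out each library. The epithelial covariate was the mean log2 level of all 16 genes of that list, with Cdh1 and Epcam. Leaving out whole populations or 2 libraries was added after seeing the data. The members and lists were chosen with earlier results of these data known. Python 3.11.15, pandas 2.3.3 and matplotlib 3.10.9 made tables and figures. Intervals and limits of 3 counts cover counting error only, since molecules were not tagged.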

Additional observations from a re-analysis of the deposited data

How the results depend on the processing

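Counts below are of the 30 genes called in each comparison. The counts of all genes called moved as well, as given in the last paragraph of this section. Among the 5 populations of the first set (1 called) there were 9 with no filter on low counts, 6 with DESeq2, and 0 with the epithelial level as covariate or in 1 fit of all 22 libraries, and 0 to 6 without single libraries. Among the 6 populations of the second set (3 called) there were 10 with no filter, 10 with DESeq2 and 1 with the myeloid level as covariate, and 0 to 9 without single libraries. For NK1.1+ against PD1+ CD8a+ cells (1 called) there were 2 with no filter, 2 with DESeq2 and 0 in 1 fit, and 0 without each library in turn. Against PD1-NK1.1- cells (0 called) DESeq2 gave 2, for PD1+ against PD1-NK1.1- (0) no filter gave 1, and for NK1.1+ CD8a+ against TCR-NK1.1+ (0) no filter gave 2. For ILC1l against cNK (1) there were 2 with no filter, 4 with DESeq2, 2 without the TCRgd+NK1.1- population, 3 without TCRab+ILTC1 replicate 2 and TCRgd+NK1.1- replicate 2, and 0 to 1 without single libraries. For TCRab+ILTC1 against TCRb+CD8a+NK1.1- (0) no filter and DESeq2 each gave 2, and single libraries left out gave 0 to 4. For TCRgd+ILTC1 against TCRgd+NK1.1- (1) there were 3 with no filter, 4 with DESeq2, 0 with the myeloid covariate, 2 without those 2 libraries and 0 to 1 without single ones. The difference between the lineages (0) gave 1 with no filter, 1 with DESeq2, 1 in 1 fit and 0 to 4 without single libraries. DESeq2 size factors in edgeR gave 4 of 30 in the second set and changed no other count of the 30. The cause of these changes was not tested.

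The criterion for treating the replicate numbers as pairs, a correlation of deviations over 0.1 in every pair of same-numbered libraries, was not met. In the first set r was 0.04 to 0.19, with 6 of 10 pairs over 0.1, and in the second -0.04 to 0.13, with 1 of 15. Some genes did shift with the replicate number in the first set. Hif1a, Slc2a1 and Ero1l were higher in replicate 2 than in replicate 1 of all 5 populations, and Eno1 and Pgk1 were lower. Ero1l was 7.30 to 16.2 CPM in replicate 1 and 35.2 to 60.1 CPM in replicate 2. The main tests did not model such a shift. With the replicate number as a block 4 of the 30 were called among the first 5 populations, 2 among the other 6 and 2 for NK1.1+ against PD1+ cells, and it changed no other count.

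The counts of all genes called moved by more than 1.5 times in every comparison. In the first set 959 over all populations became 463 to 3099 (3099 with no filter, 2461 with DESeq2, 1309 with the block, 725 in 1 fit and 463 with the covariate), 332 for NK1.1+ against PD1+ became 116 to 838, 280 against PD1-NK1.1- became 46 to 773, 71 for PD1+ against PD1-NK1.1- became 14 to 397 and 242 against TCR-NK1.1+ became 2 to 1452. In the second, 801 over all became 191 to 3675 (3675 with no filter, 2824 with DESeq2 and 191 with the covariate), 171 for ILC1l against cNK became 34 to 833, 88 for the TCRab+ILTC1 contrast became 1 to 1244, 268 for the TCRgd+ILTC1 contrast became 0 to 1786 and 9 for their difference became 0 to 479. Aldoc reversed, to 0.12, in TCRb+CD8a+NK1.1+ against TCR-NK1.1+ with the epithelial covariate. Pfkp was called in 19 of 20 alternatives over the second set and in 10 of 12 for ILC1l against cNK. With 2 libraries per population, differences of low genes such as Egln3, Vegfa and Pfkfb4 carried standard errors of 1.43 or more.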

Other observations

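Hk3, a hexokinase best known from myeloid cells, was picked out after its values were seen. It was 20.9 and 23.0 CPM in ILC1l, 18.4 and 21.3 CPM in cNK and 8.29 and 10.5 CPM in TCR-NK1.1+. It was 0 to 3.76 CPM in the 14 T cell libraries outside TCRgd+NK1.1-, in which it was 14.3 and 35.8 CPM and the myeloid sums were 6660 and 15749 CPM. The myeloid sums were 44.0 and 51.4 CPM in ILC1l, 96.7 and 589 CPM in cNK and 596 and 658 CPM in TCR-NK1.1+. As a share of hexokinase CPM per kilobase Hk3 made up 21.7% and 21.5% in ILC1l and 22.1% and 22.2% in cNK. Its share was 20.9% and 16.7% in TCR-NK1.1+ and 13.5% and 33.0% in TCRgd+NK1.1-. The tests over populations did not call it, with adjusted p of 0.243 in the first set and 0.261 in the second. Ero1l, an oxidase of the endoplasmic reticulum and HIF target, was 128 and 243 CPM in TCRgd+NK1.1- and 25.9 to 60.9 CPM in the other 10 libraries of the second set (adjusted p of 0.0162 over the 6 populations). With the myeloid level as covariate that adjusted p was 0.225. The part of myeloid RNA in these values was not tested.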
